A study of Mus musculus with 36 samples.

Results

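Within the methylation assay of the *Wnt1DR* allele, 11 of the 20 CpGs that report on the template lie close together, at bases 62 to 115 of the 250-nt reference that the authors deposited for QUMA, and these 11 form a dense CpG cluster. They are defined by position alone and no methylation value enters the definition, though earlier results of these data were known when it was set. The other 9 CpGs (CpGs 12 to 20) are spaced over bases 137 to 229 and are called the sparse CpGs here. The reference holds 21 CpGs in all, and the one at base 3 was set aside because it belongs to the forward primer and was read as methylated in 99.8 to 100 % of reads.

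The *Wnt1DR* allele carries the differentially methylated domain (DMD) and the repeats of the imprinted gene *Rasgrf1*, placed 3′ of *Wnt1*. The assay amplifies bisulfite-treated DNA of the inserted copy, so an unmethylated cytosine reads as T and a methylated one as C. All libraries came from mice or mouse cells that carry the allele. Transmission is written with the maternal allele first: +/DR animals inherited *Wnt1DR* from the father and DR/+ animals from the mother. Libraries were made from the tails of 12 +/DR and 8 DR/+ animals, from the sperm of 2 DR/DR males, from the pellet and the supernatant of a swim-up of the sperm of 2 further males (+/DR), from 2 oocyte pools (pool 1 DR/DR, pool 2 DR/+), and from extraembryonic tissue, head, spine and visceral organs of e9.5 embryos of each transmission. This makes 36 libraries. The allele is a single targeted insertion, the oocytes were pooled and amplified by nested PCR with carrier DNA, and the labels do not say how many embryos gave an e9.5 library, so the 4 tissues of a transmission may not be independent. Each tail library is 1 animal. The tails came from pedigrees of paternal, maternal or alternating transmission, and their generations ran from 1 to 6. By the labels, +/DR tails were of the paternal and alternating lineages and DR/+ tails of the maternal and alternating ones. Lineages and generations were pooled, and kinship between animals was not used in the tests. The p-values below measure the spread between animals for tails and sperm, and for e9.5 the spread between tissues of an unknown number of embryos.

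A DMD is a stretch of DNA whose methylation differs between the alleles inherited from the father and the mother. At the native *Rasgrf1* DMD the paternal allele is methylated, and tandem repeats beside it are needed to establish this methylation in the male germline. Maintenance methyltransferase copies CpG methylation to the new strand after each replication, so the pattern of a molecule can persist. Methylation lost from a whole molecule leaves a different trace in single reads than methylation lost at scattered CpGs.

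The cluster is shown first as it stands in the genome and then as a read shows it after bisulfite treatment, because the level of each CpG and the agreement between neighbours are both read from these letters. The capitals mark the CpGs. On the plus strand of the native copy (NCBIM37, mm9) the cluster lies at chr9:89774498-89774552 and the sparse CpGs at chr9:89774573-89774666. The whole reference matches the genome once. No annotated gene lies over the cluster, and it ends 30.1 kb upstream of *Rasgrf1* (89804613 to 89921814, same strand).
Cluster: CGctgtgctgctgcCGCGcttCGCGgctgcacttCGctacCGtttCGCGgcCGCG
Cluster, read when every CpG is methylated: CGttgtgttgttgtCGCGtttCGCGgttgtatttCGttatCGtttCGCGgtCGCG
Cluster, read when no CpG is methylated: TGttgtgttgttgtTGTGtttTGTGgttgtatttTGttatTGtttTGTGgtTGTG
Sparse CpGs: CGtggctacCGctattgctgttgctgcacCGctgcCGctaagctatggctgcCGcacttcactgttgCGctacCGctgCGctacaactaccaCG

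By its sequence the cluster was denser than the rest of the amplicon. It has 20 CpGs per 100 bases and the stretch of the sparse CpGs 9.57, with 72.7 and 60.6 % of bases being G or C. The ratio of observed to expected CpGs, which corrects for that base content, was 1.53 in the cluster and 1.08 beyond it. Of windows of 55 bases laid end to end along chromosome 9, 0.0157 % (344 of 2194856) hold as many as 11 CpGs. The cluster was cut to begin and end on a CpG and the windows were not. Window shares, here and below, thus describe fixed windows and do not test how rare such a stretch is.

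The cluster holds 4 CpG pairs whose members are 2 bases apart, each forming the letters CGCG, and the sparse stretch holds none. They are CpGs 2 and 3, 4 and 5, 8 and 9, and 10 and 11, and they are printed with 3 bases on each side because they recur in the results below. CGCG is its own reverse complement, so both strands carry it. It is present in 0.722 % of the windows of 55 bases along chromosome 9, and 4 or more copies in 0.0241 %.
CpGs 2 and 3: tgcCGCGctt
CpGs 4 and 5: cttCGCGgct
CpGs 8 and 9: tttCGCGgcc
CpGs 10 and 11: ggcCGCGctg

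Of 1264215 reads listed, 283290 were used, between 1717 and 26773 per library (median 7247), which gave 3114704 calls in the cluster. The share of unconverted CpHs among the reads used was 0.355 to 0.723 %, and 0.0122 to 0.0990 % of cluster calls were missing. Wilson intervals (95 %) are given for single libraries and cover counting error only, because reads carried no molecular identifiers. A set of 3 libraries with paternal transmission stood apart. Among the 120 pairs of paternal tail and e9.5 libraries, the 3 pairs formed by tail 31508, tail 31819 and the e9.5 head shared 40.0 to 51.9 % of the partly methylated read patterns, against 1.18 to 28.7 % in the other 117 pairs. The cause was not tested, and most tests that rest on these libraries are given with and without them. The calls of single CpGs by level are given only with them, and some e9.5 values without the head have no p-value.

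The cluster was methylated on nearly every read of +/DR tails and on few calls of DR/+ tails. The lowest, median and highest of the 12 paternal tails were 81.9, 94.6 and 97.1 %, with tail 32529 lowest and the other 11 between 90.4 and 97.1 %. The 8 maternal tails had 2.36, 3.01 and 3.45 %. The 2 groups did not overlap, and their means were 93.3 ± 4.17 % (SD, n = 12) and 3.01 ± 0.337 % (SD, n = 8). The difference was 90.3 percentage points (two-sided exact permutation test, p = 7.94e-06, the smallest value this design allows, adjusted over 5 level comparisons 3.97e-05). Without the pattern-sharing tails it was 90.5 points (exact p = 2.29e-05). It was 90.4 points within sequencing run 2 (exact p = 0.000999) and 89.4 within run 1, where 2 tails stood against 4 and the smallest p is 0.0667.

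At each of the 20 CpGs the tails differed by transmission, so 100 % of CpGs passed the exact permutation test adjusted over the 20, the 11 of the cluster among them. That share leaves no room for a difference between the cluster and the sparse CpGs in this call.

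In sperm the cluster was partly methylated. The unfractionated sperm of animals 35084 and 35090 had 35.8 % (Wilson interval 35.3 to 36.4) and 35.4 % (34.9 to 35.8). The swim-up pellets had 26.3 % in animal 35669 and 32.6 % in 35670, and the supernatants 22.1 % and 16.1 %. The unfractionated males were DR/DR and the swim-up males +/DR, so genotype, preparation and animal cannot be told apart between them. Tests over sperm males below take both kinds together. Each of the 6 sperm libraries lay between the maternal and the paternal tails. The supernatant was below the pellet in both males, by 10.4 points on average, and 2 males cannot give an exact sign-flip p under 0.5.

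In oocyte pools the level was low but not even. Pool 1 had 3.97 % (3.70 to 4.25) and pool 2 had 8.49 % (8.36 to 8.62), and at the sparse CpGs the pools had 0.357 and 0.437 %. Unconverted CpHs were 0.538 % in pool 1 and 0.411 % in pool 2, close to these sparse levels. Sperm of the DR/DR males exceeded the pools by 29.4 points, and 2 libraries against 2 give an exact permutation p of 0.333 at the least.

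At e9.5 with paternal transmission the extraembryonic tissue had 37.3 %, the head 78.6 %, the spine 76.6 % and the visceral organs 78.9 %. The 3 tissues of the embryo proper lay close together, and the extraembryonic library was the lowest of the 4 at all 11 CpGs. With maternal transmission the same tissues had 0.693, 1.14, 1.27 and 1.23 %, where unconverted CpHs were 0.723, 0.473, 0.454 and 0.427 %. The mean difference between transmissions was 66.8 points, positive in 4 of 4 tissues (two-sided exact sign-flip test, p = 0.125, the smallest possible with 4 pairs), and 63.2 points without the head.

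**Figure D1:**
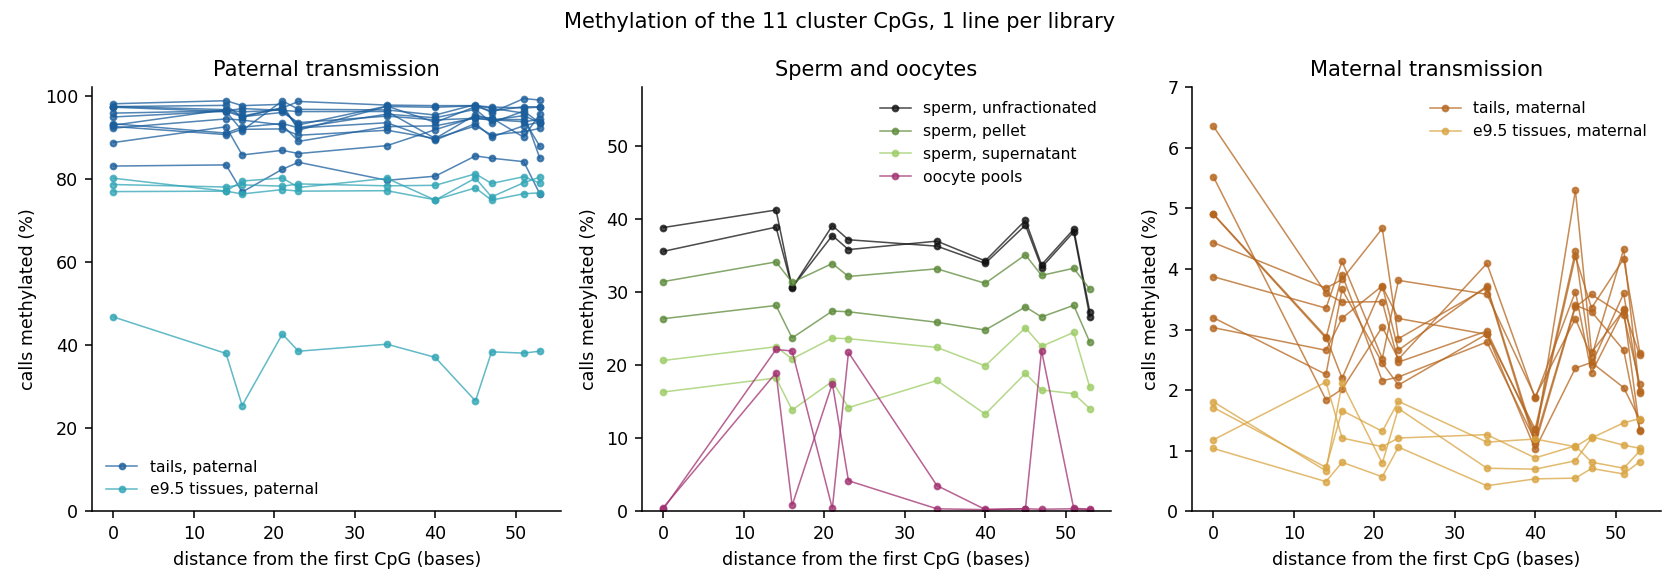
Percent of calls methylated (vertical axes, each panel with its own scale) at the 11 cluster CpGs, placed by their distance in bases from the first CpG (horizontal axes), 1 line per library and 1 panel each for paternal transmission, sperm and oocytes, and maternal transmission. The paternal e9.5 line far below the others is the extraembryonic tissue (37.3 %), and the oocyte lines are near 0 at most CpGs with peaks of 17.5 to 22.1 %.

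The plot of CpG profiles shows that all 11 CpGs followed the level of their group, with smaller differences among them that are described next.

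Paternal e9.5 tissues had less methylation in the cluster than paternal tails. All 4 tissues were below all 12 tails, by 25.4 points on average (exact permutation test, p = 0.000549, the smallest value possible, adjusted 0.00137). The extraembryonic library weighed on this value, which was -15.2 points without it. It was -29.3 points without the 3 pattern-sharing libraries (exact p = 0.0035, the smallest possible). All 20 CpGs were lower at e9.5 (100 % called after adjustment over the 20), including the 11 of the cluster.

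Within paternal tails the 11 CpGs were close to each other, and CpG 8 stood highest. CpG 8 had 85.5, 95.1 and 97.9 % as lowest, median and highest of the 12 animals, with a mean of 94.8 ± 3.42 % (SD, n = 12). CpG 2 had 94.2 ± 4.28 %, and CpGs 4 and 10 both had 93.9 % (± 4.92 and ± 4.05). The lowest means were those of CpG 5 with 91.96 ± 4.24 % and CpG 11 with 92.1 ± 6.33 %. Animals differed in which CpG was low: CpG 5 was the lowest of the cluster in 4 tails, CpG 11 in 4, CpG 3 in 2 and CpG 7 in 2.

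To remove the level of the animal, each CpG was compared with the mean of the 20 CpGs in the same library. These deviations cancel out within a library, so low CpGs raise the others, and calls higher and lower are not separate results. In paternal tails 40 % of the 20 CpGs were called higher than that mean, and 7 of these 8 were in the cluster (CpGs 1, 2, 4, 6, 8, 9 and 10). CpG 8 was 2.73 points above its library mean, and above it in 12 of 12 tails (exact sign-flip test, adjusted p = 0.00488). CpGs 3, 5, 7 and 11, with deviations of 0.233, -0.13, 0.0962 and -0.00944 points, did not pass. A further 10 % of the 20 CpGs were called lower, none in the cluster. Without the pattern-sharing tails 7 of the 20 CpGs were called in either direction. No CpG passed when only the 8 tails with 3000 reads or more were kept.

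In maternal tails the ranking had a different low point. CpG 1, the most upstream of the cluster, had 3.03, 4.67 and 6.36 % as lowest, median and highest of 8 animals, with a mean of 4.53 ± 1.14 % (SD, n = 8). CpG 8 followed with 3.72 ± 0.880 %. CpG 7 had 1.03, 1.23 and 1.89 % and was the lowest of the cluster in 7 of 8 tails, with a mean of 1.36 ± 0.337 %. Its flanks read tacCGttt, and it is the CpG of the cluster that is followed by T.

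Of the 20 CpGs 45 % were called higher than their library mean in maternal tails, and all 9 of them were cluster CpGs. That mean includes the sparse CpGs, which were lower in these tails. The calls therefore largely restate the difference between cluster and sparse CpGs given below. Another 50 % were called lower, and CpG 7, with a deviation of -0.855 points, was the cluster CpG among them (exact sign-flip test, adjusted p = 0.0104, below its library mean in 8 of 8 tails). CpG 11 was below its mean in 7 of 8 tails, with a deviation of -0.289 points (adjusted p = 0.0703 in the same exact test). No CpG can pass within run 2 alone, where 4 maternal tails allow no p below 0.125 before adjustment.

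Sperm, most of all that of the DR/DR males, showed wider differences among the 11 CpGs than the means of the tails did. A mean evens out profiles that differ between animals, and single paternal tails were wide too, with CpG 10 up to 10.9 points above CpG 11. In the pellets the CpG means ran only from 26.8 % at CpG 11 to 31.5 % at CpG 8. In the DR/DR males CpG 2 had 41.2 and 38.9 %, CpG 8 had 39.1 and 39.8 %, CpG 3 had 30.6 % in both, and CpG 11 had 26.6 and 27.3 %. Both males thus gave nearly the same profile, and its high and low points lay further apart than the males did at any CpG. CpG 11 was the lowest of the cluster in 5 of the 6 sperm libraries and in each of the 4 males when the fractions of a male were averaged, and CpG 8 was the highest in 4 of 6. In the supernatants CpG 8 had 25.1 and 18.9 %, and CpG 11 had 17.0 and 14.03 %.

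The profiles of the 11 CpGs were more alike within sperm than within tails. Spearman's rho over 11 CpGs ranged from 0.582 to 0.918 in the 15 pairs of sperm libraries (median 0.827), from 0.15 to 0.855 in the 28 pairs of maternal tails (median 0.473) and from -0.709 to 0.773 in the 66 pairs of paternal tails (median 0.134). The mean profile of paternal tails and that of unfractionated sperm had a rho of 0.836, and paternal and maternal tails 0.618. Paternal tails and paternal e9.5 tissues had 0.0727, and maternal tails and maternal e9.5 tissues -0.03. The mean paternal e9.5 profile had a rho of 0.945 with its extraembryonic library. Tissue by tissue, rho with paternal tails was -0.136 in extraembryonic tissue, 0.127 in head, 0.445 in spine and 0.0273 in visceral organs. These correlations run over CpGs of 1 amplicon, which share their reads and their sequence, and describe these libraries only.

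At e9.5 with paternal transmission, the extraembryonic library had 2 CpGs far below the rest of its cluster. CpG 3 had 25.4 % (24.5 to 26.4) and CpG 8 had 26.5 % (25.6 to 27.5), while the other 9 CpGs had 37.0 to 46.7 %, CpG 1 being the highest. In the head, spine and visceral organs CpG 8 was not low, with 80.1, 77.8 and 81.2 %, and CpG 3 had 79.4, 76.3 and 78.5 %. With maternal transmission no cluster CpG exceeded 2.13 %, the value of CpG 2 in the head.

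In the oocyte pools, the methylation of the cluster sat at a few CpGs. Pool 1 had 19.0 % at CpG 2, 17.5 % at CpG 4 and 4.18 % at CpG 5, and pool 2 had 21.7 to 22.1 % at CpGs 2, 3, 5 and 9 and 3.52 % at CpG 6. The remaining CpGs of each pool had 0.172 to 0.802 %. Whole reads showed the same. In pool 1, 18.4 % of reads were methylated only at CpG 2 and 16.7 % only at CpG 4. In pool 2 a single combination, CpGs 2, 3, 5 and 9, made up 20.6 % of reads (3380 of them). Without the reads of the most common partly methylated pattern over all 20 CpGs in pool 2, sperm exceeded the pools by 32.7 points. CpGs 2 and 5 were thus raised in both pools, and the other CpGs in 1 pool or in neither.

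The cluster was compared with the sparse CpGs of the same reads. In paternal tails the sparse CpGs had 90.6 ± 5.13 % (SD, n = 12), and the difference, cluster minus sparse, was lowest in tail 32802 with -0.872 points and highest in tail 32529 with 6.81. It was positive in 11 of 12 tails and averaged 2.62 points (exact sign-flip test, p = 0.00146, adjusted over 4 groups 0.00586). Without the pattern-sharing tails it was 2.76 points (exact p = 0.00586), and without CpGs 12 and 20, the lowest of the sparse CpGs in these tails, it was 1.65 (exact p = 0.00732).

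In maternal tails the sparse CpGs had 1.24 ± 0.231 % (SD, n = 8) and the cluster was above them in 8 of 8. The difference ranged from 1.23 points in tail 31075 to 2.04 in tail 31071 and averaged 1.78 (exact sign-flip test, p = 0.00781, the smallest possible with 8 animals, adjusted 0.0156). In run 2 alone it was 1.81 points over 4 tails, which allow no exact p under 0.125. Both stretches were low in DR/+ tails.

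In sperm the difference was positive in 4 of 4 males, with 5.89 and 5.30 points in the DR/DR males, 3.01 and 3.81 in the pellet and the supernatant of male 35669, and 1.58 and 3.25 in those of 35670. It averaged 4.25 points (exact sign-flip p = 0.125, the smallest possible). In paternal e9.5 tissues it was -4.96 points in extraembryonic tissue, 1.29 in head, 2.69 in spine and 3.15 in visceral organs, which had no common direction (mean 0.545, exact p = 0.875). The mean was 0.295 without the head (exact p = 1) and turned to -0.424 points without CpGs 12 and 20.

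Maternal e9.5 tissues did not show the surplus of the maternal tails. Cluster minus sparse was -0.944, 0.0718, 0.248 and 0.158 points in extraembryonic tissue, head, spine and visceral organs, below all 8 maternal tails. A comparison chosen after these values were seen put maternal tails above maternal e9.5 tissues by 1.89 points in this difference (two-sided exact permutation test, p = 0.00202, the smallest possible, adjusted over 3 comparisons 0.00303). The cluster itself was 1.93 points higher in tails (exact p = 0.00202), while the sparse CpGs differed by 0.0369 (exact p = 0.826). Of the 8 maternal tails 4 were sequenced in run 1 and the e9.5 tissues in run 2, and within run 2 the difference was 1.92 points (exact p = 0.0286, the smallest possible with 4 against 4).

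**Figure D2:**
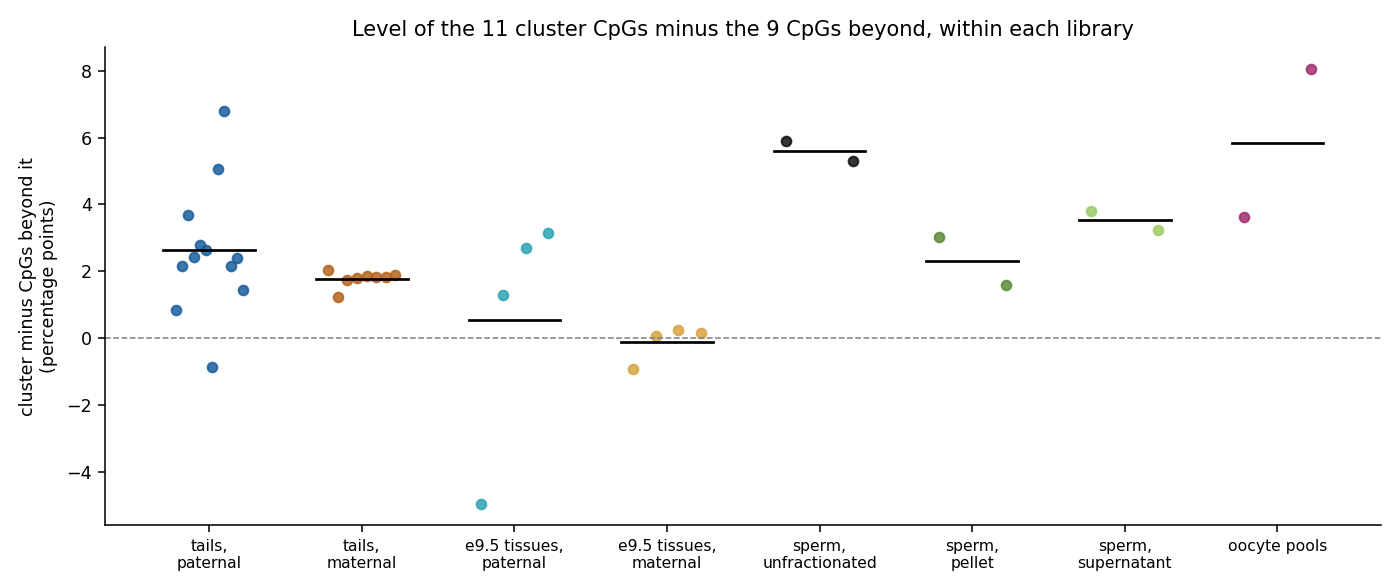
Mean level of the 11 cluster CpGs minus that of the 9 CpGs beyond it (vertical axis, percentage points), 1 point per library by group, with a black line at the group mean and a dashed line at 0. All 8 maternal tails lie between 1.23 and 2.04 points, the 4 maternal e9.5 tissues between -0.944 and 0.248, and the paternal e9.5 tissues on both sides of 0.

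The plot of cluster minus sparse levels also shows the spread of the paternal tails, which was wider than that of the maternal tails, with tail 32802 lowest and tails 32529 and 32339 (5.05 points) highest.

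Single reads were sorted by how many of their 11 cluster CpGs were methylated. In paternal tails 66.8 ± 9.71 % (SD, n = 12) of reads had all 11 and 23.1 ± 4.43 % had 10. Reads with none had 0, 1.64 and 9.13 % as lowest, median and highest of the tails, and reads with 2 to 9 made up 6.997 ± 5.21 %. Most reads that were not fully methylated thus lacked a single CpG. The lowest tail, 32529, also had the most reads with none (9.13 %), and 46.6 % of its reads had all 11.

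The CpG that was missing from reads with 10 methylated CpGs differed between animals. In 4 tails (31150, 31153, 31078 and 32339) the most frequent of these reads lacked only CpG 5, in 2.90, 4.43, 6.50 and 6.42 % of reads. In tails 31092, 32529 and 32530 it lacked only CpG 11, in 7.96, 5.06 and 7.61 %, and the same read led in the sperm of 35084 and 35090 with 3.76 and 3.82 %. In tails 31508 and 31819 and in the e9.5 head and spine, reads lacking only CpG 7 and reads lacking only CpG 9 were the leading pair.

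In maternal tails 77.2 ± 1.39 % (SD, n = 8) of reads were unmethylated across the cluster, 16.9 ± 1.07 % had 1 and 5.63 ± 1.00 % had 2 to 9. Reads with all 11 made up 0 to 0.445 %. In maternal tails most reads with any methylated call thus had 1 methylated CpG. In 4 of the 8 tails the most frequent such CpG was CpG 1, on 2.16 to 3.59 % of reads. In maternal e9.5 tissues 93.0 ± 1.83 % (SD, n = 4) had none and 5.74 ± 1.64 % had 1.

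In sperm both ends of the scale were filled. Reads with none made up 47.2 to 68.0 % of the 6 libraries and reads with all 11 4.75 to 16.9 %, with the pellets above the supernatant of the same male in the latter (11.3 against 6.79 % in 35669 and 16.9 against 4.75 % in 35670). Reads with 2 to 9 made up 23.6 and 23.0 % in the DR/DR males and 11.96 to 14.3 % in the fractions. Genotype and preparation differ together between these libraries.

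In the e9.5 embryo proper with paternal transmission, 17.8 % of reads in the head, 18.8 % in the spine and 14.7 % in the visceral organs had no methylated CpG in the cluster, each more than any paternal tail. Reads with all 11 made up 64.6, 56.2 and 75.9 %. In extraembryonic tissue 49.1 % had none, 29.0 % had 10 and 8.24 % had all 11. The reads with 10 there were led by those lacking only CpG 3 (12.8 %, Wilson interval 12.1 to 13.5) and only CpG 8 (11.3 %, 10.6 to 11.97), the pair of CpGs that were low in that library.

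**Figure D3:**
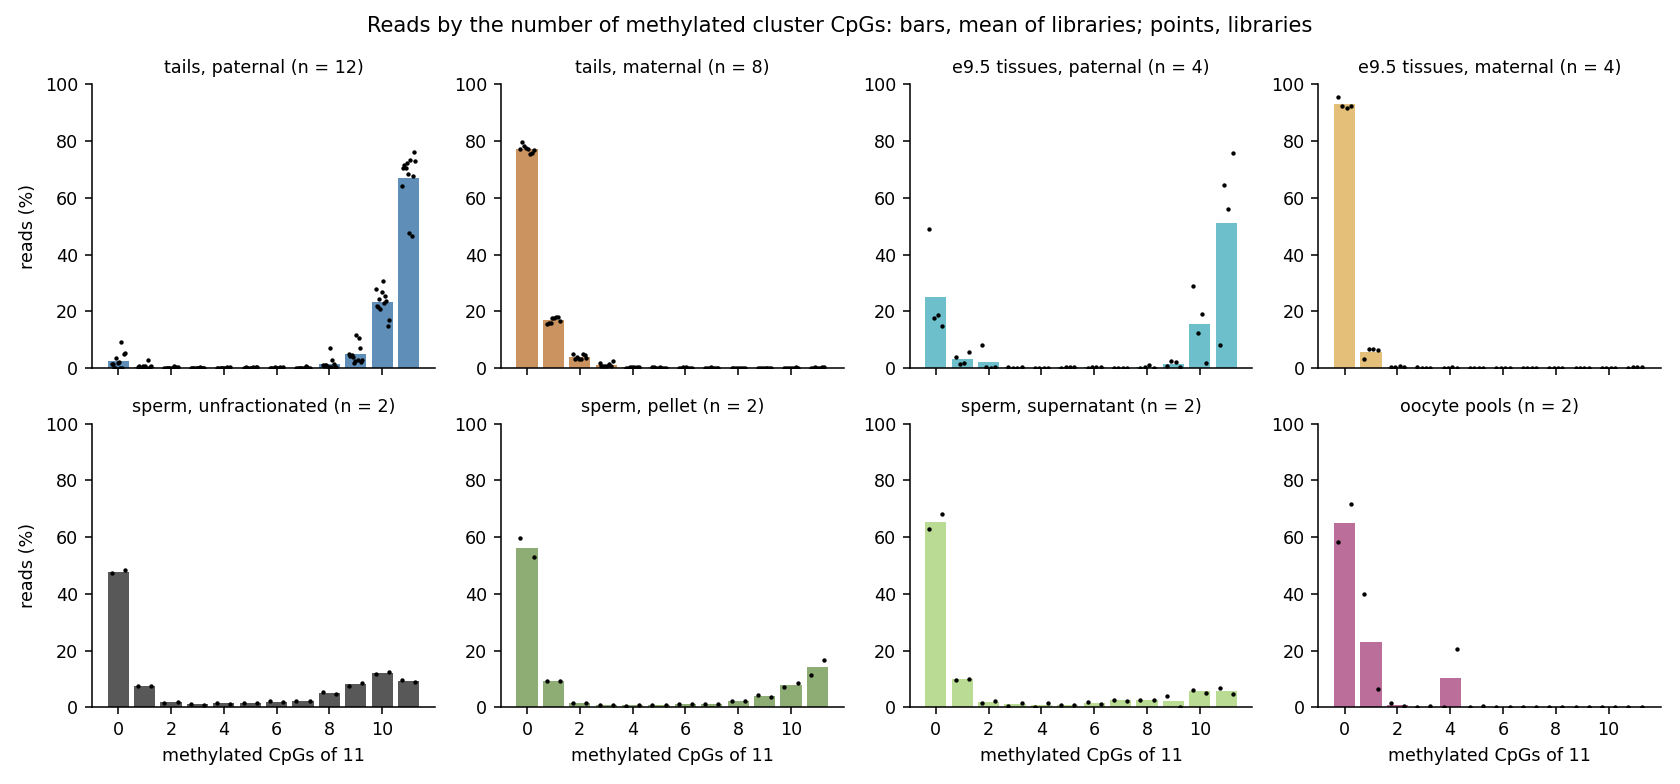
Share of reads (vertical axes, percent) with each number of methylated cluster CpGs from 0 to 11 (horizontal axes), 1 panel per group, with bars at the mean of the libraries and points for the libraries. Paternal tails are filled by reads with 10 or 11, maternal tails and maternal e9.5 tissues by reads with none, and sperm and paternal e9.5 tissues by both ends.

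The plot of read classes shows that few reads of any group but sperm fell in the middle of the scale, apart from the reads with 4 in oocyte pool 2. Reads that were partly methylated, with 1 to 10 of 11, made up 30.7 ± 8.95 % (SD, n = 12) in paternal tails and 42.7, 17.7, 25.0 and 9.39 % in the paternal extraembryonic tissue, head, spine and visceral organs. The groups overlapped, and the mean was 6.97 points lower at e9.5 (exact permutation test, p = 0.257). Without the extraembryonic library it was 13.3 points lower (exact p = 0.0352), and without the pattern-sharing libraries the difference was -7.05 points (exact p = 0.28).

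In a pair of comparisons chosen after the values were seen, reads with 6 or more of 11 CpGs methylated were counted, and their level was taken by itself. These reads made up 96.6 ± 3.81 % (SD, n = 12) in paternal tails and 79.2 ± 0.758 % (SD, n = 3) in the embryo proper, and over all 4 tissues they were 27.7 points fewer than in tails (exact permutation test, p = 0.000549, the smallest possible), or 32.0 points fewer without the pattern-sharing libraries (exact p = 0.0035). Within such reads the cluster level was 96.4 ± 1.53 % in tails and 96.6 ± 2.94 % (SD, n = 4) in e9.5 tissues, a difference of 0.2197 points (exact p = 0.885) and 0.110 without the pattern-sharing libraries (exact p = 0.986). The e9.5 libraries went both ways in this mean, with 92.5 % in extraembryonic tissue, below all 12 tails, 97.7 % in the head, 96.7 % in the spine and 99.4 % in the visceral organs, above all 12. The reads were selected by their own methylation, so the level within them is not independent of their number.

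Concordance of neighbours was measured as the share of reads on which 2 adjacent CpGs of the cluster differ, summed over the 10 adjacent pairs and divided by the share expected if CpGs were independent at the same levels. This relative discordance is 1 for independent CpGs and 0 for CpGs that always agree. In paternal tails it was 0.283, 0.636 and 0.987 as lowest, median and highest, in maternal tails 0.773, 0.858 and 0.963, and in the 6 sperm libraries 0.173, 0.246 and 0.283. Relative to its levels, sperm thus had the more concordant cluster. Its highest library (the supernatant of 35670) and the lowest paternal tail (31508) met at 0.283. Without the division the means had the other order. Averaged over the pairs, adjacent CpGs differed on 9.24 ± 2.34 % of sperm reads (SD, n = 6). In paternal tails they differed on 6.52 ± 2.26 % (SD, n = 12), with overlapping ranges. The expected share is larger at intermediate levels such as those of sperm.

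Relative discordance was lower in sperm (4 males, fractions averaged) than in paternal tails (a difference of -0.386, exact permutation test, p = 0.0104, adjusted over 3 comparisons 0.0157), and was lower also without the pattern-sharing tails (-0.453, exact p = 0.002). In paternal e9.5 tissues it was 0.206 in extraembryonic tissue, 0.121 in head, 0.146 in spine and 0.0644 in visceral organs. All 4 were below all 12 paternal tails, with a mean difference of -0.494 (exact p = 0.0022, adjusted 0.00659), or -0.556 without the 3 pattern-sharing libraries (exact p = 0.0035). Maternal e9.5 tissues had 0.766, 0.719, 0.718 and 0.678 in the same order.

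Paternal tails were below maternal tails in relative discordance (a difference of -0.229, exact permutation test, p = 0.0273, adjusted 0.0273), but this call was lost in several settings. It was lost without the pattern-sharing tails (-0.162, exact p = 0.0724), without maternal tail 32178 (exact p = 0.0502), at 90 % identity (-0.173, exact p = 0.0953) and within run 2 (-0.260, exact p = 0.113).

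The paternal tails differed among themselves along with their reads of 0 methylated CpGs. The 4 lowest values of relative discordance, 0.283 in tail 31508, 0.302 in 31819, 0.339 in 32529 and 0.372 in 31078, belonged to the 4 tails with the most such reads (4.97, 5.19, 9.13 and 3.68 %). The 4 highest, 0.987 in 30999, 0.943 in 32339, 0.917 in 32530 and 0.853 in 31153, belonged to tails with at most 0.108 % of them. Among reads with 6 or more of 11 CpGs methylated, relative discordance was 0.909 to 1.01 in the 12 tails (0.961 ± 0.033, SD), 0.780 to 0.926 in the 6 sperm libraries, and 1.04, 0.924, 0.954 and 0.675 in the paternal e9.5 tissues. Once unmethylated and weakly methylated reads were set aside, relative discordance in tails was thus near the value for independent CpGs. These reads were selected by their own methylation. The selection removes the split between methylated and unmethylated reads that lowers the value, so it is no test of independence.

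**Figure D4:**
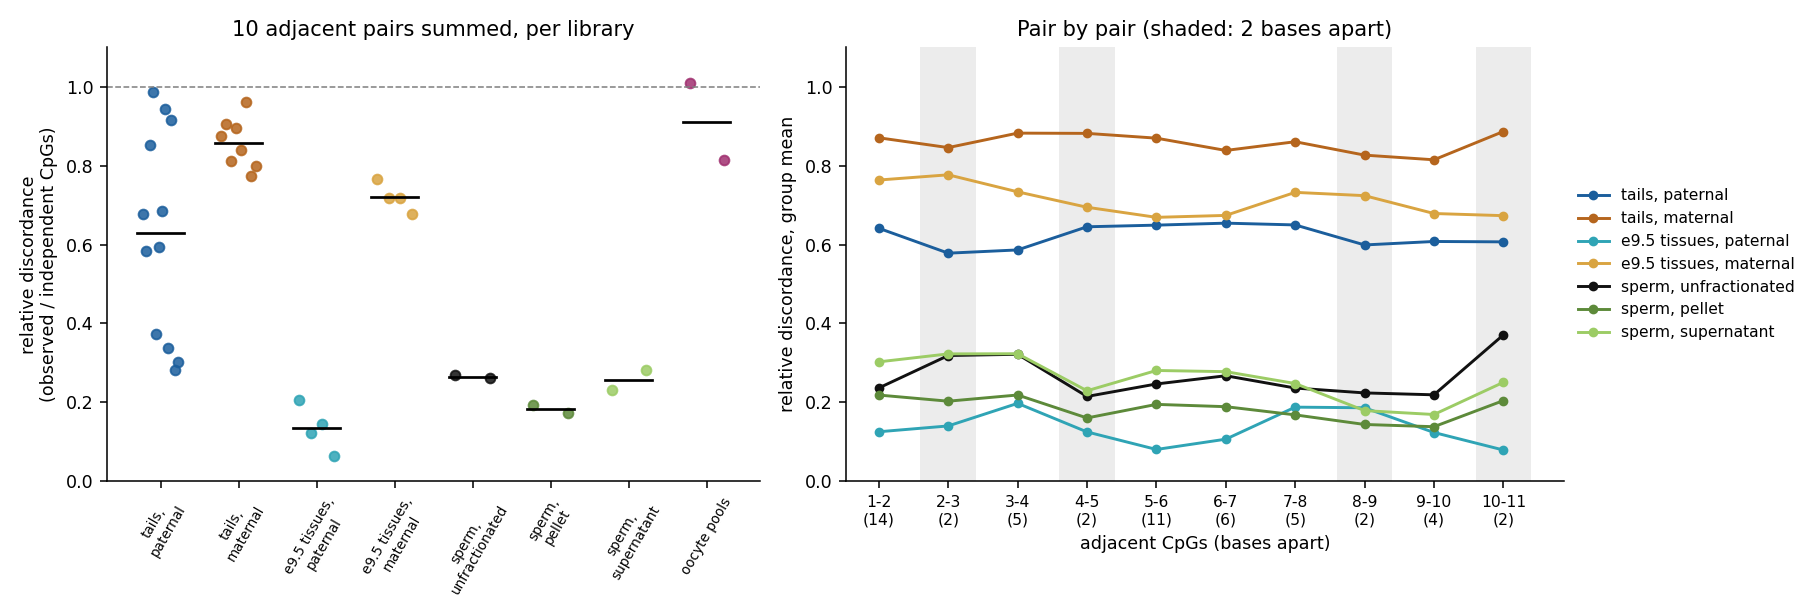
Left, relative discordance summed over the 10 adjacent pairs (vertical axis, 1 for independent CpGs, dashed line) for each library, with a black line at the group mean. Right, group means for each adjacent pair (horizontal axis, spacing in bases in brackets, pairs 2 bases apart shaded), oocytes left out. Sperm and paternal e9.5 libraries lie at or below 0.283, maternal tails at or above 0.773, and paternal tails from 0.283 to 0.987.

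The plot of relative discordance shows the paternal tails to be the group with the widest range. In the oocytes the value was 1.01 in pool 1 and 0.815 in pool 2, which held the repeated read pattern. In pool 2 CpGs 2 and 3, both in that pattern, had 0.0209 as a pair, while the next pair, CpGs 3 and 4, had 1.00.

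CpGs 2 bases apart were not more concordant than other neighbours to an extent that could be detected. Observed and expected shares were summed over the 4 CGCG pairs, and likewise over the 6 wider pairs, to give a relative discordance for each set. The value of the CGCG pairs minus that of the wider pairs was -0.0209 in paternal tails (exact sign-flip test, p = 0.113, lower in 9 of 12). In maternal tails this difference was 0.00127 (exact p = 0.938, lower in 6 of 8). It was -0.0044 in paternal e9.5 tissues (exact p = 0.875, lower in 2 of 4) and 0.00516 in sperm (exact p = 0.75), where both DR/DR males were above 0 (0.0282 and 0.0252) and all 4 swim-up fractions below it (-0.0302 to -0.00268). Without the pattern-sharing libraries it was -0.0161 in paternal tails (exact p = 0.285) and 0.00505 at e9.5 (exact p = 0.75), and run 2 alone gave -0.0299 in paternal tails (exact p = 0.043). Over all pairs of cluster CpGs, those 2 to 6, 7 to 20 and 21 to 53 bases apart had a relative discordance of 0.620, 0.639 and 0.643 in paternal tails, 0.852, 0.881 and 0.913 in maternal tails and 0.223, 0.230 and 0.278 in sperm. These values are means of each library's median over its pairs. The widest distances had the higher value in 9 of 12 paternal tails, 8 of 8 maternal tails and 6 of 6 sperm libraries, and in 1 of 4 e9.5 tissues of either transmission, a count made after the values were seen.

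The members of the CGCG pairs differed in level. Some neighbours further apart differed too, as CpGs 7 and 8 with 92.2 and 94.8 % in paternal tails and 1.36 and 3.72 % in maternal tails. Others were closer, as CpGs 9 and 10 with 93.5 and 93.9 % in paternal tails. The CGCG pairs were not tested against such neighbours, so a difference in level is not shown to be particular to them. In a test chosen after the values were seen, the first CpG of a pair was higher than the second by 1.73 points in paternal tails, positive in 12 of 12 (exact sign-flip test, p = 0.000488, the smallest possible, adjusted over 4 groups 0.00195), and by 1.99 points without the pattern-sharing tails (exact p = 0.00195). It was higher by 0.599 points in maternal tails, in 7 of 8 (exact p = 0.0156, adjusted 0.0312).

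In sperm the first CpG was higher by 5.01 points, in 4 of 4 males, and in paternal e9.5 tissues by 0.872 points, in 4 of 4 tissues (exact p = 0.125 in both, the smallest possible). The e9.5 pairs had no common order. The first CpG was higher in 2 of 4 tissues at CpGs 2 and 3, in 3 at 4 and 5, in 3 at 8 and 9 and in 1 at 10 and 11, with means of 2.56 ± 6.76, 1.56 ± 2.08, -0.51 ± 7.59 and -0.12 ± 1.21 points (SD, n = 4). Without the head the mean over the pairs was 0.913 points. In the 6 sperm libraries the first CpG exceeded the second at each of the 4 pairs, by 5.36 ± 3.41 points at CpGs 2 and 3, 1.57 ± 1.32 at 4 and 5, 3.48 ± 1.97 at 8 and 9 and 6.73 ± 4.12 at 10 and 11 (SD, n = 6). Of the sperm reads on which CpGs 10 and 11 differed, 79.4 ± 10.5 % were methylated at CpG 10 only. In paternal tails the pair of CpGs 8 and 9 had the same sign in 12 of 12 animals (1.28 ± 1.11 points), while the other pairs did in 7 to 10. In maternal tails CpG 10 was above CpG 11 in 8 of 8 (1.41 ± 0.608 points) and CpG 2 was below CpG 3 in 6 of 8 (-0.405 ± 0.674). In maternal e9.5 tissues the mean differences were -0.445, -0.508, -0.107 and -0.127 points at the 4 pairs, so the order seen in tails was not present there.

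**Figure D5:**
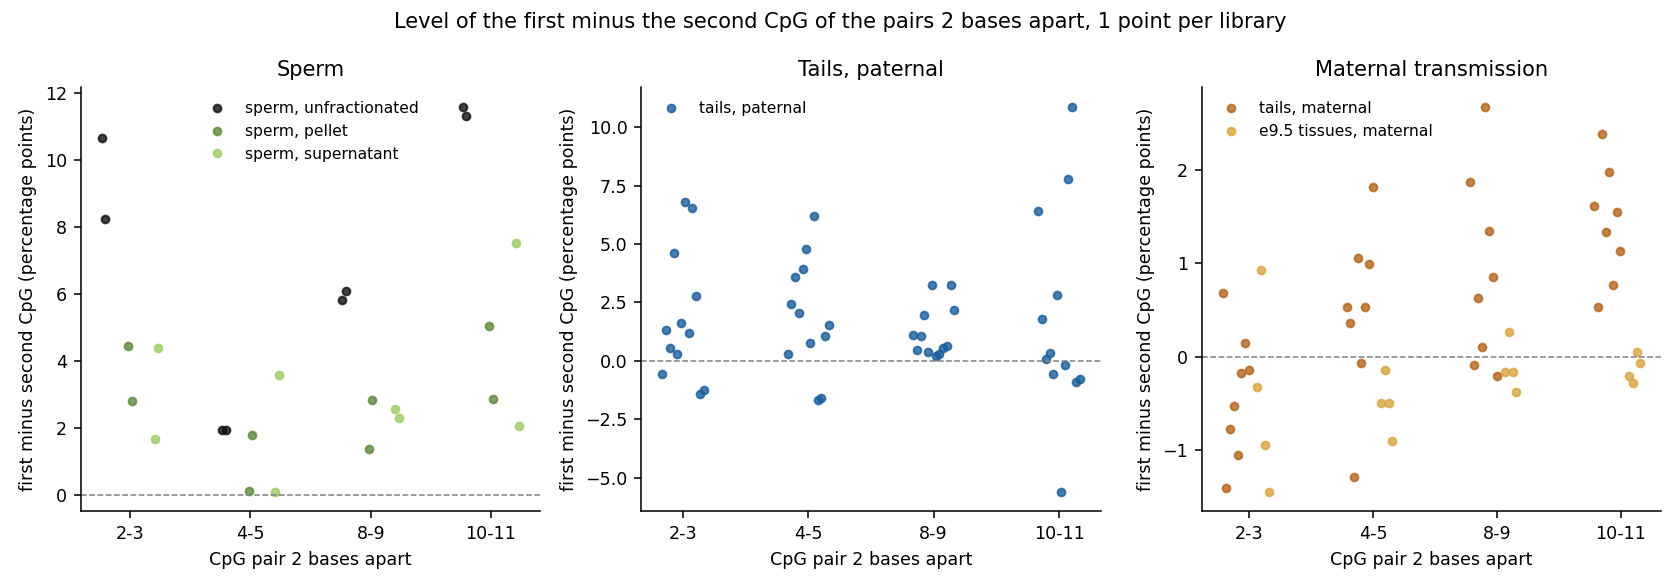
Level of the first minus the second CpG (vertical axes, percentage points, each panel with its own scale) of the 4 pairs 2 bases apart (horizontal axes), 1 point per library, for sperm, paternal tails and maternal transmission. All sperm points lie above 0, paternal tails are all above 0 at CpGs 8 and 9, and maternal tails at CpGs 10 and 11.

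The plot of first minus second CpG also shows the unfractionated sperm of both DR/DR males at the top of the sperm libraries at 3 of the 4 pairs, the largest difference being 11.6 points at CpGs 10 and 11.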

How the data were processed

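Bisulfite-treated tail, sperm, oocyte and e9.5 DNA was amplified by the authors over 1 amplicon of *Wnt1DR* and sequenced on a MiSeq. Data of run 2 were truncated by the authors. Reads were aligned to the unconverted reference by the authors with a local QUMA, whose version is not given in the sources used here. The deposited files give, per read, counts of methylated CpGs, unconverted CpHs, mismatches and gaps, and percent identity, percent CpGs methylated and percent CpHs converted, with a call at each CpG where the read was not excluded (limits per the file headers of 5 unconverted CpHs, 95 % conversion and 10 mismatches). The files of 33 libraries were made at an identity limit of 90 % and 3 at 98 %. PCR favouring some molecules would shift levels without widening the intervals.

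Reads that were not excluded and had 98 % identity or more were used. A CpG level is the percentage of methylated calls, and a cluster level pools its 11 CpGs. Reads whose call string had been lost in a spreadsheet (3509, of which 221 met the limit, in 8 libraries) and missing calls were left out. In oocyte files, whose reference holds 23 CpGs, the cluster is calls 1 to 11. Depth is 1717 to 26773 reads per library. All 110 pairs of libraries within a group differed in their read patterns (chi-square, highest p = 0.0254), and each library counted once. The chi-square takes reads as independent, so it cannot tell whether 2 libraries came from separate DNA.

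Groups were set by the genotype, tissue and title labels. Tests were exact, two-sided and run over libraries only, permuting group labels for a difference of means or flipping signs for differences within libraries, animals or tissues. P-values were adjusted by Benjamini and Hochberg within each family, or over the 20 CpGs, with a threshold of 0.05. Swim-up fractions were paired because both come from the same male. The e9.5 tissues were paired by tissue. The CpGs named are the highest and the lowest of the cluster in each group, the members of pairs 2 bases apart, and CpGs chosen after their values were seen, as in oocytes and extraembryonic tissue. The cluster, tests and lists were chosen with earlier results of these data known.

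Sequences were taken from the deposited reference and matched to NCBIM37, and positions are those of the native copy. On simulated data 177 of 180 levels lay inside their interval, and in 2 sets of 400 null comparisons 19 and 21 passed the threshold. Alternatives are given at the end. The software was Python (3.11.15) with NumPy (2.4.6) and SciPy (1.17.1), and plots were drawn with Matplotlib (3.10.9).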

Additional observations from a re-analysis of the deposited data

Results flagged for a closer look

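Within groups of 4 to 8 values, libraries far from the rest of their group were sought in 51 sets of values, of which 15 had one, and chance alone gives about 1 in 20. With paternal transmission at e9.5, the extraembryonic tissue was set apart from the head, spine and visceral organs in its cluster level (37.3 %) and at each of the 11 CpGs, with 46.7, 38.0, 25.4, 42.6, 38.5, 40.2, 37.0, 26.5, 38.4, 38.1 and 38.5 % at CpGs 1 to 11. These 12 sets share the same reads and are 1 observation. With maternal transmission the extraembryonic tissue was set apart in cluster minus sparse (-0.944 points), the only maternal library below 0.

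Among maternal tails, animal 31075 had the smallest cluster minus sparse difference (1.23 points), far from the other 7. Among maternal e9.5 tissues the head was set apart at CpG 2 (2.13 %), and reads methylated only at CpG 2 made up 1.71 % of that library.

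The difference between cluster and sparse CpGs was itself different between maternal tails and maternal e9.5 tissues, by 1.89 points (two-sided exact permutation test, p = 0.00202, n = 8 and 4). The comparison was chosen after the values were seen. Stage and tissue cannot be told apart between these groups, and within sequencing run 2 the difference was 1.92 points (exact p = 0.0286).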

How the results depend on the processing

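Of 520 recomputed values of 30 results, 471 kept their direction and their side of the threshold, or, for counts, lay within 1.5 times. Paternal minus maternal tail levels, e9.5 minus tail levels, cluster minus sparse in paternal tails and relative discordance of sperm and of e9.5 against paternal tails kept both in every alternative that could reach p under 0.05. Run 1 alone, whose 2 against 4 tails cannot, gave 89.4 points, -0.157 in relative discordance and 0 CpGs called by level. Run 2 alone gave, in maternal tails, cluster minus sparse of 1.81, first minus second CpG of 0.558 and 0 CpGs called by deviation, all with 4 tails. First minus second CpG was 0.569 (exact p = 0.0625) in maternal tails of at least 3000 reads, and that minimum left 0 CpGs called by deviation in paternal tails. Relative discordance of paternal minus maternal tails lost its call at 90 % identity (-0.173), in run 2 (-0.260) and without the 3 pattern-sharing libraries (-0.162).

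Values near 0 changed sign. Near minus far became -0.00355 (90 % identity) and -0.000252 (run 2) in maternal tails, -0.00253 in sperm at 3000 reads and 0.00505 in e9.5 without the 3 libraries. In paternal tails of run 2 it kept its sign and passed the threshold (-0.0299). Cluster minus sparse in paternal e9.5 became -0.499 with every CpH converted and -0.424 without CpGs 12 and 20. The sparse level of maternal tails minus e9.5 became -0.102 with every CpH converted and -0.0214 in run 2, and the level within mostly methylated reads -0.145 in run 2. The cause of these changes was not tested.

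With each replicate left out in turn, cluster minus sparse in paternal e9.5 ranged from -0.324 to 2.38, relative discordance of paternal minus maternal tails from -0.262 to -0.198, near minus far from -0.0283 to -0.0141 in paternal tails (past the threshold without 30999 or 32802), from -0.0102 to 0.00928 in maternal tails, from -0.0123 to 0.00505 at e9.5 and from -0.00253 to 0.00671 in sperm. Partly methylated reads ranged from -13.3 to -2.21, the sparse level from -0.0214 to 0.182, the level within mostly methylated reads from -0.714 to 1.58, and the CpGs called by deviation in paternal tails from 6 to 9.

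Pairing of the swim-up fractions came from the shared male. Without this block the difference was again -10.4 points (exact p = 0.333). Pairing of the e9.5 tissues rests on tissue alone, and unpaired the difference of 66.8 points had an exact p of 0.0286. The 3 libraries left out, the repeated oocyte pattern, CpGs 12 and 20, maternal tails against e9.5, CGCG members and mostly methylated reads were examined after seeing the data. With 2 libraries a group, sperm, oocytes and fractions cannot reach p under 0.05, however many reads were counted.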
